A study of Mus musculus with 18 samples.

Results

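Fc gamma receptors bind the constant part of IgG and let macrophages take up, clear and respond to antibody-coated particles. The activating receptors signal through an immunoreceptor tyrosine-based activation motif (ITAM), which in the mouse is carried by a small adaptor, the Fc receptor gamma chain encoded by Fcer1g. Fcgr2b instead carries an inhibitory motif (ITIM) and recruits phosphatases. Tyrobp encodes DAP12, a related ITAM adaptor used by the TREM receptors, and the kinase Syk docks on the phosphorylated ITAMs of both adaptors. Here, 9 genes of this system were followed, which were chosen by name: the activating receptors Fcgr1, Fcgr3 and Fcgr4, the inhibitory receptor Fcgr2b, the adaptors Fcer1g and Tyrobp, the receptors Trem2 and Trem1, and Syk. All 9 were found among the 38887 genes of the series, and all 9 passed the filter on low counts in every comparison.

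RNA-Seq was performed with bone marrow-derived macrophages (BMMs) of adult female C57BL/6J mice, grown from bone marrow with M-CSF. Per the study, all 3 genotypes carried Lyz2-Cre, with Cre driven by the promoter of the myeloid gene Lyz2, and animals with this allele alone served as WT. GILZ KO animals also had floxed alleles of Tsc22d3, the gene of the glucocorticoid-induced leucine zipper (GILZ), and in GILZ TG animals Cre removed a stop cassette ahead of a Gilz cDNA in ROSA26. Cells of each genotype were left untreated or were exposed for 4 h to 100 ng/ml LPS, lipopolysaccharide of Gram-negative bacteria, with 3 libraries in each of the 6 groups (18 in total). Each library of a group is a separate cell preparation per the study, and p-values measure the spread between the libraries of a group. Whether untreated and LPS libraries of the same number share a preparation is not given by the labels, and the main LPS tests did not pair them.

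Between 14583055 and 38557029 reads per library fell on genes. Tsc22d3 was at 14.9 to 18.8 TPM (a share of all transcripts, corrected for transcript length) in untreated WT, at 1.89 to 2.81 TPM in GILZ KO and at 152 to 160 TPM in GILZ TG. After LPS, WT fell to 4.56 to 5.81 TPM, so that GILZ KO and WT were then closer (2.50 to 3.28 TPM in GILZ KO, adjusted p = 0.15 in edgeR), while GILZ TG remained at 127 to 141 TPM. Lyz2 was at 11048 to 15401 TPM in untreated WT and at 17.2 to 53.1 TPM in the untreated libraries of both other genotypes, so that WT also differed from them in the transcript of the gene that carries Cre. Its part in the results was not tested. The 7 macrophage markers summed to 4128 to 5172 TPM in all libraries, and the markers of T and NK cells, mast cells, dendritic cells and erythroid cells to at most 1.44 TPM. The GILZ TG libraries numbered 1 and 2 stood apart in both treatments. Their neutrophil lineage markers summed to 193 and 487 TPM untreated (28.0 to 73.6 TPM in the other 7 untreated libraries) and to 236 and 536 TPM after LPS (49.6 to 111 TPM in the others). Their stromal fibroblast markers summed to 101 and 115 TPM untreated (4.88 to 21.8 TPM elsewhere), and to 80.2 and 109 TPM after LPS (10.3 to 21.5 TPM elsewhere). Their B and plasma cell markers summed to 93.6 and 158 TPM untreated (31.0 to 36.1 TPM elsewhere), and to 81.8 and 149 TPM after LPS (16.9 to 26.1 TPM elsewhere), although Ms4a1, a B cell marker, did not exceed 0.08 TPM in any library. Not every listed marker was raised in these libraries. After LPS, the neutrophil lineage marker S100a9 was at 92.1 and 214 TPM (7.04 to 36.6 TPM elsewhere), but Csf3r was at 18.15 and 19.66 TPM (26.8 to 39.8 TPM elsewhere). Untreated, Cd79b of the B and plasma cell list was at 7.05 and 9.05 TPM (7.88 to 13.4 TPM elsewhere). The GILZ TG library numbered 3 also had more Igkc, a gene of this list, with 11.4 TPM untreated and 7.28 TPM after LPS. In WT and GILZ KO it was at most 2.22 TPM. Leaving out the libraries numbered 1 and 2 thus does not remove all such transcripts. The part of the libraries numbered 1 and 2 in the results was not tested. Values without them are given beside the genotype results that moved most when they were left out.

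The Fc gamma receptor genes lie in 2 places of the GRCm38 assembly. Fcgr2b (chr1:170958617-170976547), Fcgr4 (chr1:171018920-171029761), Fcgr3 (chr1:171051174-171064935) and the adaptor gene Fcer1g (chr1:171229572-171234365) are neighbors on chromosome 1, of which Fcgr4 is on the plus strand and the others are on the minus strand. Fcgr1 is on chromosome 3 (chr3:96282909-96293969, minus strand). Trem1 (chr17:48232768-48246924) and Trem2 (chr17:48346401-48354147) are both on the plus strand of chromosome 17, Tyrobp is on chromosome 7 (chr7:30413760-30417585, plus strand), and Syk on chromosome 13 (chr13:52583173-52648792, plus strand). Fcgr2b and Fcgr3 share sequence: 5.42% of the 75-base words of the Fcgr3 transcripts also occur in Fcgr2b, and 1.63% of those of Fcgr2b in Fcgr3. Their estimated counts were not whole in any library, so that a small part of their reads was divided between genes, while the other 7 genes had whole counts in all 18 libraries and no shared words.

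Promoter sequences of RefSeq (GRCm38.p6, 5′ to 3′ on the gene's strand) are shown for the receptors Fcgr1 and Fcgr4, which rose in all genotypes after LPS, and for Trem2, which fell. Capitals mark the letters of 6 motifs searched on both strands: the gamma-activated site GAS (TTCNNNGAA), the core of the interferon-stimulated response element ISRE (GAAANNGAA), the core site of PU.1 (GAGGAA), AP-1 (TGANTCA), C/EBP (TTGCNNAA) and the NF-kB consensus.
Fcgr1, chr3:96293970-96294219 (minus strand): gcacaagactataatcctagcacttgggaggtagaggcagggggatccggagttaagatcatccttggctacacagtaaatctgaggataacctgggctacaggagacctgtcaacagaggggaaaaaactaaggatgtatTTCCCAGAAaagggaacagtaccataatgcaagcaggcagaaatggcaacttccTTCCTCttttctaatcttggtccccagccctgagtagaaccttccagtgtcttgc
Fcgr4, chr1:171018676-171018919 (plus strand): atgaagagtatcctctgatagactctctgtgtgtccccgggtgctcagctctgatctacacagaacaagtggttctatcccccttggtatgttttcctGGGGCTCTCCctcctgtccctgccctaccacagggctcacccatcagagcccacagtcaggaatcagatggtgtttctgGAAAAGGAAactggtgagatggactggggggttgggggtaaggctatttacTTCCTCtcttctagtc
Trem2, chr17:48346151-48346400 (plus strand): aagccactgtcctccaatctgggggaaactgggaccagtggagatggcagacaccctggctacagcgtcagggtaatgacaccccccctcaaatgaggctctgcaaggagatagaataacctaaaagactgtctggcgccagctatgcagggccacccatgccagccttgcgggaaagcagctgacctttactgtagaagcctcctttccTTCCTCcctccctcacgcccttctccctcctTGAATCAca
In Fcgr1, the capitals are a GAS match 109 to 101 bases before the start and a PU.1 core 55 to 50 bases before it. In Fcgr4, they are a match to the NF-kB consensus (152 to 143 bases before the RefSeq start), an ISRE core (73 to 65 bases) and a PU.1 core (22 to 17 bases). In Trem2, they are a PU.1 core (40 to 35 bases) and an AP-1 match (9 to 3 bases). In the 250 bases before the start, GAS was found in 2 of the 8 members that had a promoter sequence (Fcgr1 and Trem1), ISRE in 1 (Fcgr4), the PU.1 core in 6 (all but Fcgr2b and Fcer1g, for Syk in only 1 of its RefSeq starts), AP-1 in 1 (Trem2), C/EBP in 1 (Fcgr3) and NF-kB in 2 (Fcgr4 and Fcgr3). Of all 32851 promoter windows, 7.02% held GAS, 7.13% ISRE, 23.3% the PU.1 core, 6.75% AP-1, 9.56% C/EBP and 7.25% NF-kB. These shares count single windows, whereas a member with several starts was counted if any of them matched, so the units differ. A match is a run of letters and was not tested as a binding site.

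In untreated WT BMMs, the adaptors were the most abundant members. Tyrobp was at 1543 ± 44.2 TPM (SD, n = 3), followed by Fcer1g (1049 ± 96.4 TPM), Trem2 (757 ± 59.1 TPM), Fcgr3 (255 ± 22.8 TPM), Syk (124 ± 16.9 TPM) and Fcgr1 (75.1 ± 6.90 TPM). Fcgr2b (22.1 ± 8.26 TPM) and Fcgr4 (16.0 ± 1.84 TPM) overlapped, and Trem1 was the lowest with 5.15 ± 1.73 TPM. All other neighbors in this order were apart in their ranges, and the order was the same in GILZ KO and in GILZ TG except that Fcgr4 and Fcgr2b, which overlapped, changed places in GILZ TG. After LPS, Fcer1g passed Tyrobp in the means of all genotypes, with overlapping ranges in GILZ KO, and Fcgr1 moved up to the level of Trem2. Together, the 9 genes held 0.370% to 0.415% of all TPM without treatment and 0.414% to 0.448% after LPS.

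**Figure D1:**
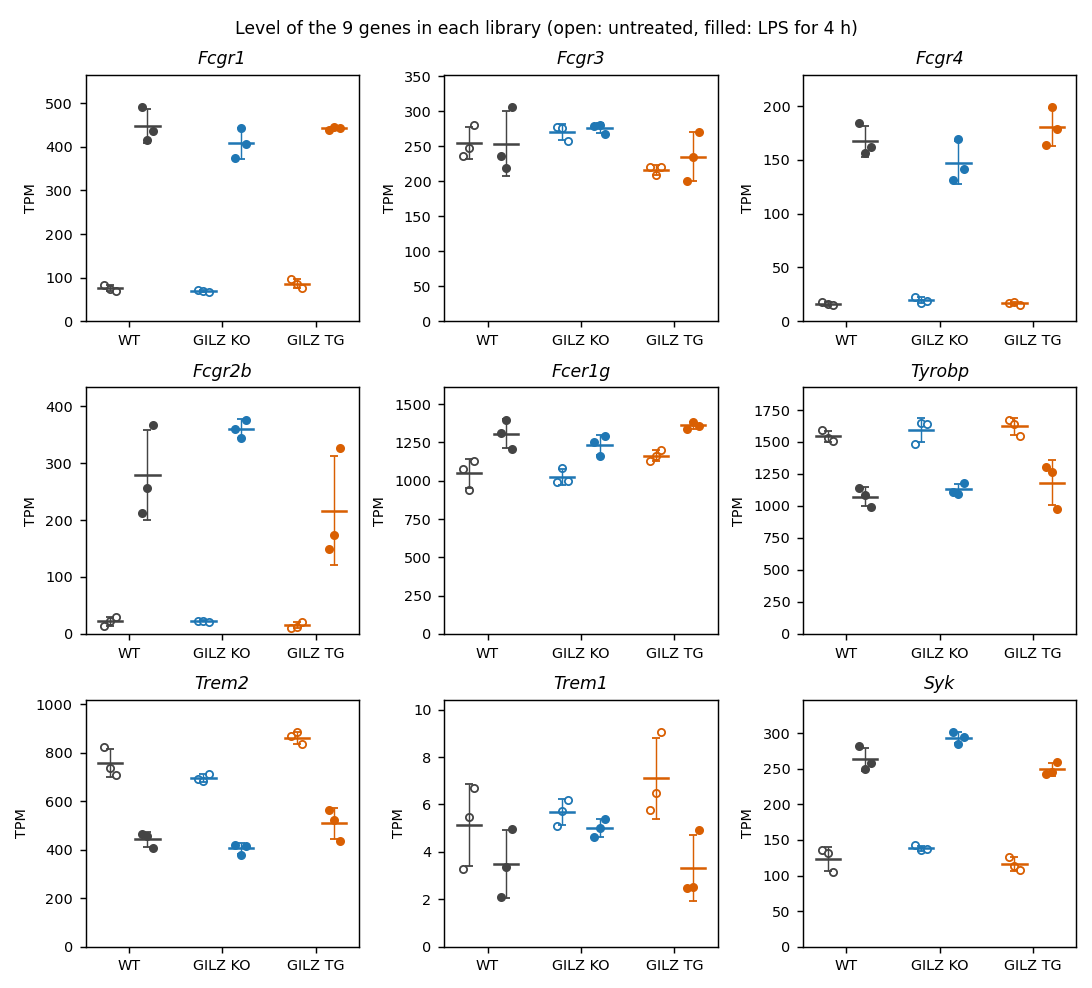
TPM of the 9 genes in each of the 18 libraries (y axis, linear, from 0), by genotype, with open points for untreated and filled points for LPS-treated BMMs. Lines and bars are the mean ± SD of 3 libraries. Fcgr1, Fcgr4, Fcgr2b and Syk are higher in every LPS library than in every untreated library, Trem2 and Tyrobp are lower on this scale, and Fcgr2b and Trem1 scatter most in WT and GILZ TG.

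The first comparison was LPS-treated against untreated BMMs of each genotype. LPS raised the inhibitory Fcgr2b and the activating Fcgr4 and Fcgr1 most, Syk and Fcer1g to a lesser degree, and lowered Trem2 in each genotype. In each genotype 7 of 9 members passed the test, 6 higher and 1 lower. As background, 33.5% of 13169 genes were called higher and 35.1% lower in WT, 33.2% and 35.4% in GILZ KO, and 33.6% and 35.1% in GILZ TG. The members had a median log2 fold change of 0.95 (WT), 0.90 (GILZ KO) and 0.85 (GILZ TG), against -0.02 for all genes in each genotype. These values use TMM-scaled counts. TMM (trimmed mean of M values) centers the bulk of the genes, and its factors were 1.24 to 1.28 in untreated and 0.756 to 0.828 in LPS libraries. TPM has no such centering: there, the median gene fell by 0.51 (WT), 0.52 (GILZ KO) and 0.51 (GILZ TG) on the log2(TPM + 1) scale, and each member shifts accordingly. Fcgr1, Fcgr4, Fcgr2b, Syk and Fcer1g were called higher and Trem2 lower on both scales, but the calls for Fcgr3 and Tyrobp depended on the scale.

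Fcgr1 encodes the high-affinity IgG receptor CD64. In WT it was at 82.2, 74.7 and 68.4 TPM untreated and at 493, 416 and 437 TPM after LPS. In GILZ KO the values were 71.0, 68.2 and 66.7 TPM untreated and 374, 445 and 408 TPM after LPS. In GILZ TG, untreated libraries were at 97.1, 85.5 and 75.3 TPM and LPS libraries at 439, 445 and 445 TPM. No LPS library overlapped with an untreated one, and the untreated libraries of GILZ KO and GILZ TG were apart. The log2 fold change after LPS was 3.21 ± 0.10 (SE) in WT (adjusted p = 1.34e-14), 3.21 ± 0.10 in GILZ KO and 3.00 ± 0.10 in GILZ TG.

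Fcgr4, an activating receptor for certain IgG subclasses, rose from a lower level. In WT it was at 18.1, 15.5 and 14.6 TPM untreated and at 184, 156 and 162 TPM after LPS. In GILZ KO the values were 22.7, 17.1 and 18.3 TPM and 131, 170 and 142 TPM, and in GILZ TG 17.03, 17.4 and 15.2 TPM and 164, 199 and 179 TPM. The treatments were far apart in every genotype, and GILZ KO had the lowest single library after LPS. Its log2 fold change was 4.01 ± 0.13 in WT (adjusted p = 1.96e-14), 3.56 ± 0.12 in GILZ KO and 4.08 ± 0.13 in GILZ TG.

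Fcgr3, the low-affinity activating receptor and the most abundant Fc gamma receptor transcript of untreated cells, overlapped in its TPM between treatments. In WT it was at 236, 248 and 280 TPM untreated and at 236, 219 and 306 TPM after LPS. In GILZ KO it was at 278, 275 and 257 TPM and at 279, 281 and 268 TPM, and in GILZ TG at 220, 208 and 220 TPM and at 200, 234 and 270 TPM. This was the case in every genotype. On TMM-scaled counts, its log2 fold change was 0.62 ± 0.12 in WT, 0.66 ± 0.12 in GILZ KO and 0.75 ± 0.12 in GILZ TG (adjusted p = 1.93e-04, 9.87e-05 and 2.58e-05), while limma on log2(TPM + 1) gave -0.02, 0.03 and 0.11 (adjusted p = 0.89, 0.81 and 0.37). Relative to the median gene, Fcgr3 was higher after LPS on both scales, by 0.64 and 0.49 in WT.

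Fcgr2b, the inhibitory receptor that also removes immune complexes, had the largest log2 fold change of the members in each genotype. In WT, the libraries were at 13.6, 22.8 and 30.1 TPM untreated and at 212, 257 and 366 TPM after LPS. In GILZ KO they were close to each other, with 23.4, 23.2 and 21.7 TPM untreated and 361, 344 and 377 TPM after LPS. In GILZ TG they were at 11.2, 12.9 and 21.7 TPM untreated and at 150, 173 and 327 TPM after LPS. The library with the highest value untreated also had the highest value after LPS in WT and in GILZ TG, and the numbers were in the same order in both treatments. Fcgr2b rose by a log2 fold change of 4.26 ± 0.35 in WT (19.2-fold, adjusted p = 7.92e-09), 4.600 ± 0.36 in GILZ KO and 4.46 ± 0.36 in GILZ TG (4.55 ± 0.45 without the GILZ TG libraries numbered 1 and 2). On the TPM scale, the means rose 12.6-fold, 15.8-fold and 14.2-fold, respectively.

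The make-up of the receptor transcripts differed between treatments. The summed TPM of the 4 receptors rose from 368 ± 22.5 to 1148 ± 114 in WT, from 381 ± 15.5 to 1192 ± 47.5 in GILZ KO and from 334 ± 10.6 to 1075 ± 135 in GILZ TG. Fcgr3 accounted for 63.7% to 71.7% of this sum in untreated libraries and for 20.9% to 24.4% after LPS. The share of Fcgr1 was 17.4% to 28.1% untreated and 32.7% to 46.1% after LPS, that of Fcgr4 3.70% to 5.75% and 11.4% to 19.0%, and that of Fcgr2b 3.24% to 7.64% and 15.7% to 31.6%. For none of the 4 genes did the shares of untreated and LPS libraries overlap. The ratio of activating (Fcgr1, Fcgr3 and Fcgr4) to inhibitory (Fcgr2b) transcripts was 24.8, 14.8 and 12.1 in untreated WT libraries and 4.29, 3.08 and 2.47 after LPS. In GILZ KO libraries this ratio ranged from 15.6 to 15.8 without and from 2.17 to 2.60 with LPS. In GILZ TG it was 29.9, 24.1 and 14.3 untreated and 5.36, 5.07 and 2.73 after LPS, where the lowest value of each treatment is the library numbered 3. All 3 GILZ TG libraries were above the 3 GILZ KO libraries after LPS. These ratios are taken within a library and do not depend on the scaling, and no test was made for them.

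**Figure D2:**
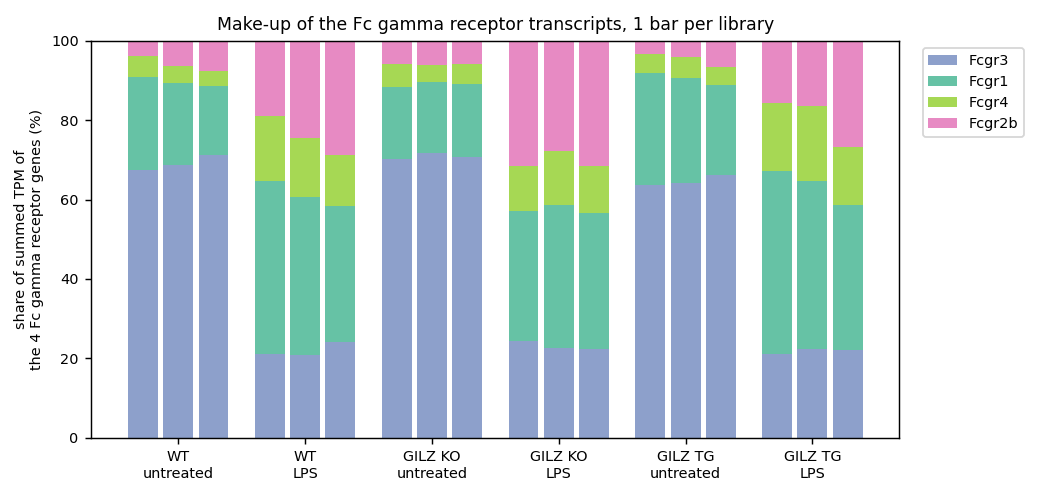
Share of Fcgr3, Fcgr1, Fcgr4 and Fcgr2b (%) in the summed TPM of the 4 Fc gamma receptor genes, with 1 stacked bar per library and 3 libraries per group in the order of their numbers. Fcgr3 makes up 63.7% to 71.7% in untreated and 20.9% to 24.4% in LPS-treated BMMs, where Fcgr1, Fcgr4 and Fcgr2b take larger shares.

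Fcer1g, the adaptor of the activating Fc receptors, was at 1075, 942 and 1129 TPM in untreated WT and at 1314, 1400 and 1210 TPM after LPS. GILZ KO libraries were at 991, 1083 and 1000 TPM untreated and at 1255, 1164 and 1291 TPM after LPS. GILZ TG libraries were at 1129, 1161 and 1200 TPM and at 1341, 1386 and 1356 TPM. In each genotype the LPS libraries were above the untreated ones without overlap. Fcer1g rose by a log2 fold change of 0.95 ± 0.08 in WT, 0.90 ± 0.08 in GILZ KO and 0.85 ± 0.08 in GILZ TG, and 0.32, 0.27 and 0.23 on the log2(TPM + 1) scale, called on both scales. The ratio of Fcer1g to their sum fell from 3.03 ± 0.21 to 1.52 ± 0.23 in WT, with similar values in GILZ KO (2.86 ± 0.17 and 1.49 ± 0.17) and GILZ TG (3.66 ± 0.25 and 1.59 ± 0.08).

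Tyrobp, the adaptor of Trem1 and Trem2, depended on the scale. WT libraries were at 1593, 1528 and 1509 TPM untreated and at 1139, 1088 and 992 TPM after LPS. GILZ KO libraries were at 1483, 1647 and 1643 TPM and at 1113, 1095 and 1178 TPM, and GILZ TG libraries at 1675, 1640 and 1551 TPM and at 1305, 1266 and 979 TPM. TPM values were thus lower after LPS without overlap, with a log2 change of -0.53, -0.49 and -0.47 in limma (adjusted p = 4.51e-05, 8.49e-05 and 1.52e-04). On TMM-scaled counts it was 0.11 ± 0.08 in WT, 0.14 ± 0.08 in GILZ KO and 0.18 ± 0.08 in GILZ TG (adjusted p = 0.24, 0.13 and 0.064), and in GILZ TG it was called higher with DESeq2 (0.20, adjusted p = 0.028) with its size factors in edgeR (adjusted p = 0.041) and with the replicate number as a block (0.17, adjusted p = 0.034), whereas it was at 0.01 ± 0.12 without the GILZ TG libraries numbered 1 and 2. Relative to the median gene on the log2(TPM + 1) scale, the change was -0.02, 0.02 and 0.05. These relative values depend on the constant added to TPM. On the log2(TPM + 0.1) scale, the median gene was at -0.62, -0.64 and -0.62, and Tyrobp at -0.53, -0.49 and -0.47, thus above it in each genotype. The ratio of Tyrobp to Fcer1g, which needs no scaling between libraries, was 1.29 to 1.64 in all untreated libraries and 0.722 to 0.973 in all LPS libraries.

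Trem2, a receptor for lipids and lipoproteins that signals through Tyrobp, was the member called lower in edgeR. In WT it was at 823, 738 and 710 TPM untreated and at 464, 458 and 405 TPM after LPS. GILZ KO libraries were at 691, 683 and 711 TPM and at 421, 380 and 417 TPM, and GILZ TG libraries at 868, 883 and 835 TPM and at 563, 523 and 437 TPM. The treatments did not overlap in any genotype. Trem2 changed by -0.31 ± 0.08 on the log2 scale in WT (adjusted p = 0.0016), -0.32 ± 0.08 in GILZ KO and -0.27 ± 0.08 in GILZ TG, and -0.77, -0.78 and -0.77 on the log2(TPM + 1) scale.

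Trem1, which amplifies the inflammatory response of neutrophils and monocytes, was low, with 2.11 to 9.04 TPM. WT libraries were at 3.27, 5.48 and 6.69 TPM untreated and at 2.11, 3.36 and 4.97 TPM after LPS. GILZ KO libraries were at 5.11, 5.73 and 6.20 TPM and at 4.61, 5.01 and 5.37 TPM, and GILZ TG libraries at 5.77, 6.49 and 9.04 TPM and at 2.46, 2.54 and 4.91 TPM. Only in GILZ TG did the TPM of untreated and LPS libraries not overlap. The log2 fold change on TMM-scaled counts was 0.07 ± 0.32 in WT, 0.46 ± 0.32 in GILZ KO and -0.51 ± 0.32 in GILZ TG (adjusted p = 0.86, 0.22 and 0.17), and on the log2(TPM + 1) scale it was below 0 in all genotypes (-0.46, -0.15 and -0.94), called in GILZ TG with an adjusted p of 0.0031. Without the GILZ TG libraries numbered 1 and 2 the change in GILZ TG was -0.22 ± 0.46 on TMM-scaled counts, and without the LPS library numbered 3 of GILZ TG it was -0.90 (adjusted p = 0.019). With the replicate number as a block, Trem1 was called lower in GILZ TG (-0.52, adjusted p = 7.0e-04) and higher in GILZ KO (0.46, adjusted p = 0.0022), and it was called higher in GILZ KO when only the libraries compared were fitted (0.45, adjusted p = 0.0044). The ratio of Trem2 to Trem1 was at least 75.8 in every library.

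Syk, the kinase shared by these receptors, was at 135, 131 and 104 TPM in untreated WT and at 281, 249 and 258 TPM after LPS. GILZ KO libraries were at 142, 136 and 137 TPM and at 301, 285 and 294 TPM, and GILZ TG libraries at 127, 114 and 108 TPM and at 242, 246 and 259 TPM. LPS libraries were higher in all genotypes, and in both treatments the GILZ KO libraries were above those of WT and GILZ TG. In the edgeR fit of each treatment, Syk was not called between GILZ KO and WT (adjusted p = 0.63 untreated and 0.49 after LPS). Nor was it called between GILZ KO and GILZ TG (adjusted p = 0.12 and 0.11). The log2 fold change after LPS was 1.70 ± 0.08 in WT (adjusted p = 2.23e-12), 1.71 ± 0.08 in GILZ KO and 1.72 ± 0.08 in GILZ TG.

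**Figure D3:**
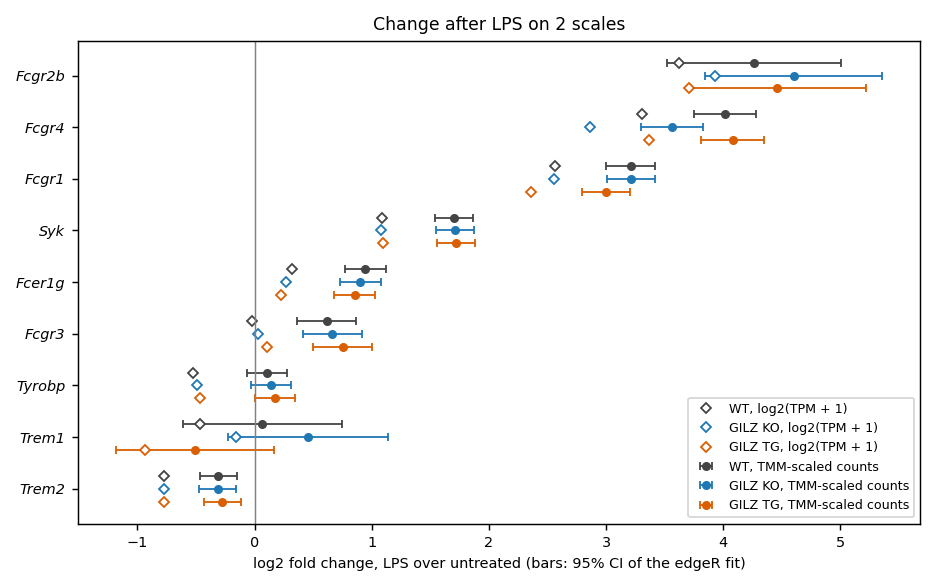
log2 fold change of the 9 genes after LPS (x axis) in WT, GILZ KO and GILZ TG, with filled points for TMM-scaled counts with their 95% CI (edgeR) and open diamonds for log2(TPM + 1). The diamonds lie to the left of the points for every gene, and for Fcgr3 in WT, Tyrobp in all genotypes and Trem1 in WT and GILZ KO they lie on the other side of 0.

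Whether the LPS response differed between genotypes was tested in the fit of all 18 libraries. In GILZ KO against WT 0 of 9 members were called (0.0152% of 13169 genes), and in GILZ TG against WT 0 of 9 (0.00759%). At an unadjusted p under 0.05 there was 1 member in the former, Fcgr4, and 0 in the latter, and DESeq2 called 0 in both. The response of Fcgr4 was smaller in GILZ KO than in WT (log2 difference -0.46 ± 0.17, 95% CI -0.81 to -0.10, adjusted p = 0.68). For Syk, the difference from WT had an interval of -0.22 to 0.23 for GILZ KO and -0.20 to 0.24 for GILZ TG, and for Fcgr1 -0.27 to 0.27 and -0.48 to 0.06. For Fcgr2b and Trem1, the intervals were wider (-0.63 to 1.30 and -0.57 to 1.35 in GILZ KO). In addition, GILZ KO was compared with GILZ TG after the values of Trem1 had been seen: 0 of 9 members were called (0.121% of all genes), 2 had an unadjusted p under 0.05 (Fcgr4 -0.52 ± 0.17, adjusted p = 0.25, and Trem1 0.97 ± 0.45, adjusted p = 0.50), and DESeq2 called 0.

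The second comparison was between genotypes within a treatment. With edgeR, Trem2 and Fcgr1 were called between untreated GILZ KO and GILZ TG, and 0 members were called in the other genotype comparisons when each treatment was fitted on its own. For GILZ KO against WT, 0 of 9 members were called in untreated (0.0951% of 12621 genes) and 0 of 9 in LPS-treated BMMs (0.0822% of 12164 genes). At an unadjusted p under 0.05 there was 1 in each, Trem2 untreated (-0.16 ± 0.05, adjusted p = 0.42) and Syk after LPS (0.16 ± 0.07, adjusted p = 0.49), and DESeq2 called 0 in both. The log2 fold changes were between -0.17 and 0.23 untreated and between -0.19 and 0.51 after LPS.

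For GILZ TG against WT, 0 of 9 members were called in untreated (0.642% of all genes) and 0 of 9 in LPS-treated BMMs (0.46%), with 3 and 0 members at an unadjusted p under 0.05, and 0 in both with DESeq2. The 3 were Fcgr3 (-0.26 ± 0.08, adjusted p = 0.20), Trem2 (0.15 ± 0.05, adjusted p = 0.23) and Fcgr1 (0.19 ± 0.08, adjusted p = 0.34). Without the GILZ TG libraries numbered 1 and 2, they were at -0.21 ± 0.13, 0.10 ± 0.08 and 0.01 ± 0.08. For Fcgr2b, the log2 fold change was -0.56 ± 0.31 untreated (adjusted p = 0.47) and -0.35 ± 0.27 after LPS (adjusted p = 0.58). It was -0.01 ± 0.36 and 0.26 ± 0.22 without the GILZ TG libraries numbered 1 and 2, whereas without the LPS library numbered 3 it was called (-0.79, adjusted p = 0.021).

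For GILZ KO against GILZ TG, 2 of 9 members were called in untreated BMMs (4.94% of all genes), Trem2 and Fcgr1, and both had lower levels in GILZ KO. DESeq2 called 3, with Fcgr3 in addition. Trem2 was at 695 ± 14.6 TPM in GILZ KO and at 862 ± 24.8 TPM in GILZ TG (log2 fold change -0.31 ± 0.05, 95% CI -0.43 to -0.19, adjusted p = 0.018), with WT in between at 757 ± 59.1 TPM. Fcgr1 was at 68.6 ± 2.21 TPM in GILZ KO and at 86.0 ± 10.9 TPM in GILZ TG (-0.35 ± 0.08, 95% CI -0.53 to -0.17, adjusted p = 0.040), with WT at 75.1 ± 6.90 TPM. Neither gene overlapped between GILZ KO and GILZ TG, but both calls were lost when any of the 3 GILZ KO libraries was left out, or the GILZ TG library numbered 1 or 2, and that of Fcgr1 also when the WT library numbered 2 was left out or with limma on TPM, with the same direction throughout. Without the GILZ TG libraries numbered 1 and 2, the values were -0.25 ± 0.08 for Trem2 (adjusted p = 0.18) and -0.18 ± 0.08 for Fcgr1 (adjusted p = 0.29), and 0 of 9 members and 34 genes in all were called, in place of 623.

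A further 3 members had an unadjusted p under 0.05 in this comparison. Fcgr3 was higher in all GILZ KO libraries than in all GILZ TG libraries (0.29 ± 0.08, adjusted p = 0.069), and it was called with DESeq2 (adjusted p = 0.017) and with limma on log2(TPM + 1) (adjusted p = 0.045). With each library left out in turn, Fcgr3 was at 0.27 to 0.33 (adjusted p = 0.016 to 0.21 in edgeR). Without the GILZ TG libraries numbered 1 and 2, it was at 0.25. Syk was also higher in all GILZ KO libraries (0.22 ± 0.08, adjusted p = 0.12), and Fcer1g was lower (-0.22 ± 0.08, adjusted p = 0.15).

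After LPS, 0 of 9 members were called between GILZ KO and GILZ TG (2.6% of all genes), 4 had an unadjusted p under 0.05, and DESeq2 called 2, Trem2 and Syk. Trem2 was at 406 ± 22.7 TPM in GILZ KO and at 508 ± 64.4 TPM in GILZ TG (-0.33 ± 0.09, adjusted p = 0.087, and 0.023 in DESeq2). Syk was at 293 ± 7.86 TPM and at 249 ± 8.63 TPM (0.22 ± 0.07, adjusted p = 0.11, and 0.032 in DESeq2). Fcgr2b was at 360 ± 16.3 TPM and at 217 ± 96.3 TPM (0.73 ± 0.27, adjusted p = 0.17), and Fcgr4 at 147 ± 20.0 TPM and at 181 ± 17.8 TPM (-0.30 ± 0.11, adjusted p = 0.16). The number of calls moved with the libraries in the fit, from 24 to 1403 genes in all when each was left out in turn. Without the library numbered 3 of GILZ TG, Fcgr2b (1.17, adjusted p = 0.0025), Trem2 (-0.41, adjusted p = 0.013), Syk (0.27, adjusted p = 0.029) and Trem1 (1.00, adjusted p = 0.035) were called, and 1403 genes in all in place of 316. In contrast, without the GILZ TG libraries numbered 1 and 2, which have the raised neutrophil, stromal and plasma cell markers, Fcgr2b was at 0.11 ± 0.22 (adjusted p = 0.90), Trem2 at -0.16 ± 0.11 (adjusted p = 0.64), Syk at 0.13 ± 0.09 (adjusted p = 0.65), and 0 of 9 were called.

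**Figure D4:**
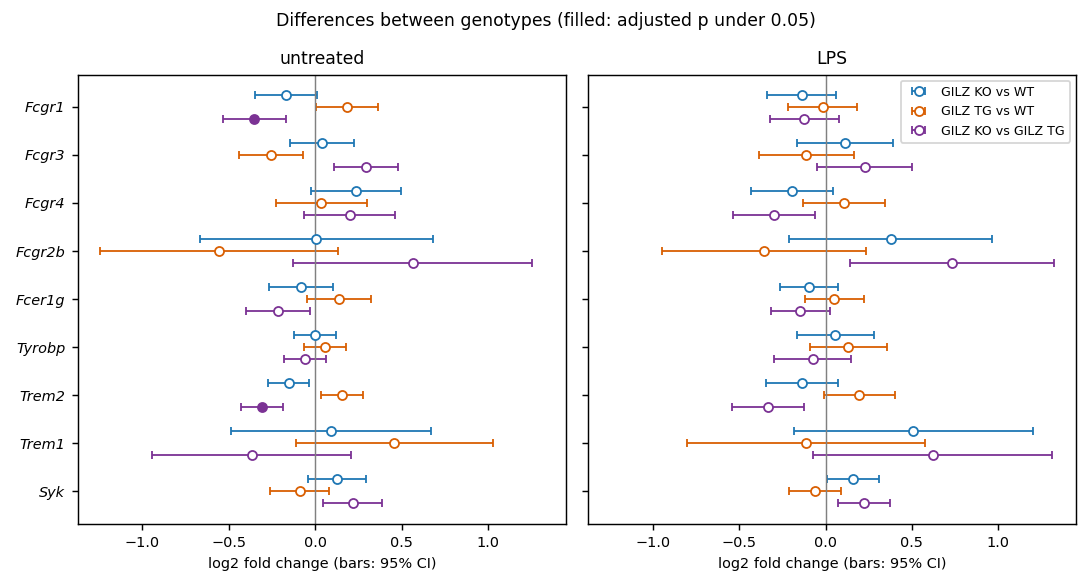
log2 fold change of the 9 genes between genotypes (x axis) with 95% CI of the edgeR fit, in untreated (left) and LPS-treated (right) BMMs. Filled points have an adjusted p under 0.05, which are Fcgr1 and Trem2 in untreated GILZ KO against GILZ TG, and the intervals are widest for Fcgr2b and Trem1.

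Fcgr2b and Trem1 also varied most between libraries of a group. Their SD within groups was 0.46 and 0.45 on the log2 scale, against 0.09 to 0.16 for the other 7 members. In untreated WT and GILZ TG, the libraries numbered 1, 2 and 3 had the same order of values in both genes, and in GILZ KO, all 3 libraries were within a range of 1.74 TPM for Fcgr2b. After LPS, the library numbered 3 of GILZ TG was the one nearest to GILZ KO for both genes, with 327 TPM of Fcgr2b (344 to 377 TPM in GILZ KO) and 4.91 TPM of Trem1 (4.61 to 5.37 TPM).

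The remaining genes of the pathway were taken from lists, whose counts stand against the shares of all genes called higher (33.5% in WT, 33.2% in GILZ KO and 33.6% in GILZ TG) and lower (35.1%, 35.4% and 35.1%) after LPS. Between genotypes, the shares of all genes called were 4.94% untreated and 2.6% after LPS for GILZ KO against GILZ TG. For GILZ TG against WT they were 0.642% and 0.46%. For these lists, 21 calls between genotypes that involve GILZ TG are named. Without the GILZ TG libraries numbered 1 and 2, all 21 had the same sign and 1 was called. Of 12 other Fc receptors 4 were expressed enough to be tested. Trim21, an intracellular IgG receptor, rose from 14.1 ± 0.40 to 211 ± 10.4 TPM in WT (4.53 ± 0.08, adjusted p = 2.95e-17), from 15.8 ± 0.47 to 213 ± 14.0 TPM in GILZ KO and from 13.8 ± 0.60 to 217 ± 3.76 TPM in GILZ TG. Fcrl1, a receptor better known from B cells, fell from 12.9 ± 1.26 to 5.95 ± 0.35 TPM in WT (-0.47 ± 0.11) and was called lower in the other genotypes, too. The median of the 4 was -0.01, 0.13 and 0.23, and 0 were called between genotypes in either treatment. The mast cell receptor chain Fcer1a was at 0 TPM in every library.

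Other receptors that pair with Fcer1g or Tyrobp were tested in 18 of 25 cases for LPS. Called higher were 7 in WT, 8 in GILZ KO and 7 in GILZ TG, and 2 were called lower in each. Clec4e (Mincle), an Fcer1g-coupled receptor for mycobacterial glycolipids, rose from 432 ± 137 to 2196 ± 249 TPM in WT (3.03 ± 0.31), and Cd200r4 from 8.81 ± 0.62 to 35.1 ± 3.47 TPM (2.63 ± 0.13). Cd300lb, which couples to Tyrobp, fell from 145 ± 0.33 to 16.3 ± 0.85 TPM (-2.56 ± 0.09, adjusted p = 1.26e-13). The median of the list was 0.18 in WT, 0.26 in GILZ KO and 0.27 in GILZ TG. Between GILZ KO and GILZ TG, Sirpb1c was higher in GILZ KO in both treatments (1.12 ± 0.13 untreated and 1.01 ± 0.14 after LPS), Sirpb1a untreated (0.92 ± 0.19) and Sirpb1b after LPS (0.71 ± 0.16). These 3 genes are near-identical copies, and their estimated counts were not whole in at least 17 libraries each, so they are uncertain as single genes.

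Of 16 inhibitory receptors with an ITIM, to which Fcgr2b belongs by its motif, 11 were called higher and 3 lower in WT, 10 and 3 in GILZ KO, and 11 and 3 in GILZ TG, of which 1, 1 and 2 of the higher ones had a lower mean TPM after LPS. The list's median was 0.92, 0.96 and 0.82. Siglece, a sialic acid receptor, rose from 2.88 ± 0.34 to 11.1 ± 1.097 TPM in WT (2.58 ± 0.19) and Pilra from 22.2 ± 6.61 to 50.4 ± 11.6 TPM (2.01 ± 0.25), whereas Cd300a fell from 77.3 ± 4.63 to 24.5 ± 5.82 TPM (-1.005 ± 0.12). Pilra and Cd300a had estimated counts that were not whole in any library and are uncertain as single genes. Between untreated GILZ TG and WT, 2 were called higher, Clec12a (0.27 ± 0.05) and Cd72, a receptor best known from B cells (345 ± 80.6 TPM in GILZ TG and 176 ± 22.7 TPM in WT, 0.94 ± 0.14, adjusted p = 0.020). Between GILZ KO and GILZ TG, 1 was called higher and 2 lower in each treatment, of 16 tested untreated and 15 after LPS (4.94% and 2.6% of all genes were called). Untreated, these were Pirb (0.36 ± 0.09), whose counts were not whole in any library, Cd72 (-1.20 ± 0.14) and Clec12a (-0.31 ± 0.05), and after LPS Siglece (1.05 ± 0.17), Cd72 (-0.95 ± 0.17) and Lair1 (-0.30 ± 0.07). The GILZ TG libraries numbered 1 and 2 had the raised B and plasma cell markers. Without them, Cd72 was at 0.53 ± 0.10 in GILZ TG against WT (adjusted p = 0.15), and in GILZ KO against GILZ TG at -0.79 ± 0.10 untreated (adjusted p = 0.028, the call that was kept) and at -0.54 ± 0.19 after LPS (adjusted p = 0.33). Likewise, Pirb was at 0.19 ± 0.10 (adjusted p = 0.34) and Siglece at 0.63 ± 0.15 (adjusted p = 0.14).

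Src family kinases phosphorylate ITAMs, and Csk restrains them. Of the 7 tested genes of this list, 6 were called higher and 0 lower in each genotype (Fyn and Csk among the 6 had a lower mean TPM after LPS), and the median was 2.18 in WT, 2.25 in GILZ KO and 2.09 in GILZ TG. Fgr was not called, with log2 fold changes of -0.43, -0.36 and -0.07. Src rose from 5.42 ± 1.27 to 48.2 ± 5.39 TPM in WT (3.86 ± 0.17), and Lyn, a main ITAM kinase of myeloid cells, from 96.5 ± 5.06 to 322 ± 32.4 TPM (2.37 ± 0.09). Between genotypes, 0 were called.

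Of 30 signalling proteins downstream of Syk, 16 were called higher and 7 lower in WT, 15 and 7 in GILZ KO, and 19 and 8 in GILZ TG, with a median of 0.38, 0.32 and 0.42. On the other scale, 6, 5 and 9 of the higher ones had a lower mean TPM after LPS. Malt1, a part of the CARD9 complex, rose from 22.7 ± 1.12 to 197 ± 13.5 TPM in WT (3.75 ± 0.13), and the adaptor Lcp2 (SLP-76) from 49.4 ± 4.84 to 243 ± 20.7 TPM (2.97 ± 0.11). Plcg1 fell from 9.68 ± 1.70 to 1.79 ± 0.15 TPM (-1.56 ± 0.13) and Nfatc1, a calcium-dependent transcription factor, from 19.9 ± 2.59 to 5.58 ± 0.47 TPM (-1.20 ± 0.10). After LPS, Pik3cg was higher in GILZ KO than GILZ TG (0.50 ± 0.11, and 0.30 ± 0.13 without the GILZ TG libraries numbered 1 and 2). Between GILZ KO and GILZ TG without treatment, Cblb (0.49 ± 0.09), Pik3cg (0.23 ± 0.05) and Plcg2 (0.22 ± 0.05) were higher and the adaptor Blnk had lower levels in GILZ KO (-0.41 ± 0.05). Blnk was also higher in untreated GILZ TG than in WT (57.3 ± 2.73 against 42.8 ± 3.06 TPM, 0.40 ± 0.05, adjusted p = 0.0096).

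Of 11 phosphatases and Dok proteins that limit ITAM signals, 6 were called higher and 2 lower in WT, 6 and 3 in GILZ KO, and 7 and 3 in GILZ TG, where 3 of the higher ones in each had a lower mean TPM after LPS. Ptprj (CD148) rose from 52.8 ± 2.84 to 166 ± 17.9 TPM in WT (2.30 ± 0.08), while Inpp5d (SHIP1), the lipid phosphatase that Fcgr2b recruits, fell from 155 ± 27.0 to 35.9 ± 6.51 TPM (-1.43 ± 0.12, adjusted p = 7.06e-09). Inpp5d also fell in GILZ KO (-1.61 ± 0.12) and in GILZ TG (-1.62 ± 0.12). After LPS, Ptpn22 was at lower levels in GILZ KO (22.7 ± 1.90 TPM) than in GILZ TG cells (38.5 ± 1.13 TPM, -0.65 ± 0.09, adjusted p = 0.0083). The median of these 11 was 0.29, 0.19 and 0.34. Among 6 TREM ligands and sheddases tested for LPS, 1 was called higher in each genotype, Adam17, which sheds Trem2 from the cell surface (1.28 ± 0.08 in WT, from 166 ± 14.5 to 261 ± 2.03 TPM). Hmgb1, whose counts were whole in only 1 library, was called lower in each (-0.35 ± 0.10 in WT) and Adam10 in GILZ KO (-0.30 ± 0.07). Untreated GILZ KO cells had more Adam10 (0.31 ± 0.06) and Adam17 (0.28 ± 0.05) than GILZ TG cells.

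**Figure D5:**
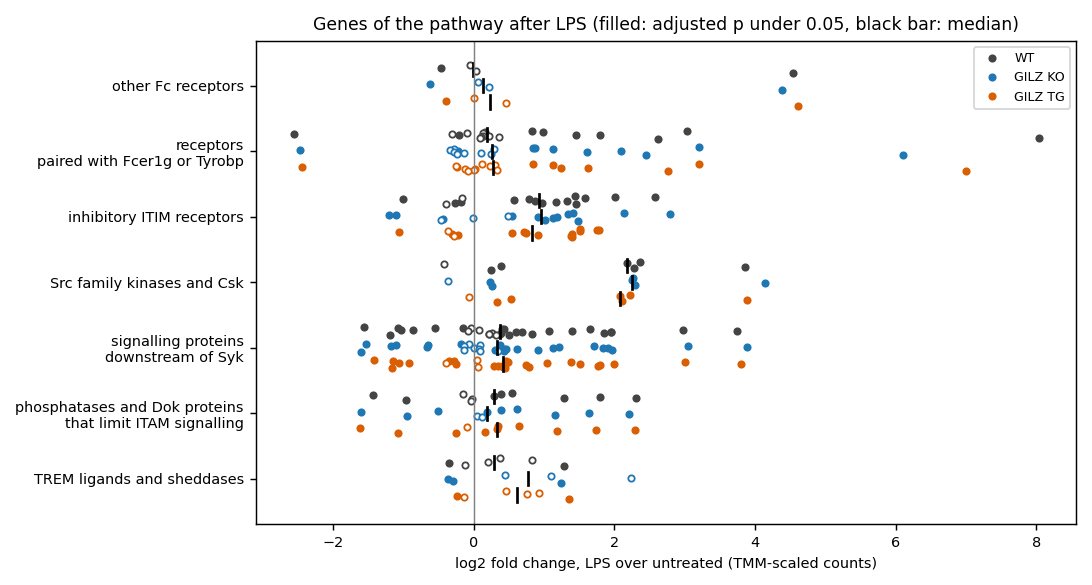
log2 fold change after LPS (x axis, TMM-scaled counts) of the tested genes of each list (y axis), by genotype, with filled points for an adjusted p under 0.05 and black bars for the median. The medians of the Src family kinases are 2.18, 2.25 and 2.09 and lie highest, and the points above 6 are Klrk1, which is under 5 TPM in each group.

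Genes with a pattern most like a member over the 18 libraries, by Pearson's r of log2(TPM + 1), are given as a description, because the libraries share the split into untreated and LPS. For Fcgr2b these were Sod2 (r = 0.997), Tarm1 (0.995) and Ebi3 (0.994), for Fcgr4 Zcchc2, Ppm1k and Tnfsf10 (0.998 to 0.997), and for Fcgr1 Rasa4, Rapgef2 and Vps37c (each 0.997). For Trem2 they were Rgs10 (0.994), Plau (0.991) and Pebp1 (0.989), for Syk Trim56 (0.994) and Naa25 (0.993), and for Tyrobp Uqcr11, Lemd2 and Rplp0 (0.981 to 0.978). Fcer1g (Cd52, 0.905), Trem1 (Adk, 0.856) and Fcgr3 (Selplg, 0.831) had less close neighbors. As RNA of whole cultures was measured, fewer cells with a transcript and less RNA per cell cannot be told apart.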

How the data were processed

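RNA of BMMs was sequenced as 75-base single reads after poly(A) selection, in 18 libraries of 6 groups. The authors mapped the reads to GRCm38 with grape-nf. The deposited files hold, for each library, the expected count per gene, not normalized, and TPM, both computed by the authors' pipeline. The authors' deposited DESeq2 tables (DESeq2 1.40.2 and FastQC 0.11.2 per the labels) hold fold changes and p-values, of which only the gene names were used here.

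Members were found by name and matched by Ensembl identifier. The members and lists were chosen with earlier results of these data known. Expected counts were rounded, filtered with filterByExpr and scaled by TMM. Differences were assessed by quasi-likelihood tests (edgeR 4.0.16, R 4.3.3, two-sided) with Benjamini-Hochberg adjustment over all genes tested and a threshold of 0.05. Genotypes were compared within the 9 libraries of a treatment, and LPS responses in a fit of all 18. Errors are the SD of TPM and the SE of log2 fold changes. Libraries of a group are separate preparations per the study. Deviations of same-numbered untreated and LPS libraries from their group means correlated over 0.1 in all 3 pairs of WT and of GILZ TG, and in 1 of 3 of GILZ KO. The labels do not give pairs, and the main tests compared group means without pairing. The replicate number entered only as a block in an alternative fit. With 3 libraries per group, a permutation test of a single gene cannot give a p under 0.1. The tests were checked on simulated counts with the same spread setting for every gene and changes of a fixed size in a small part of the genes. The check does not cover genes that vary as much as Fcgr2b and Trem1, smaller differences, or the wide shift after LPS. Named genes of a list are up to 3 per direction with the largest called change and at least 5 TPM. Genes compared in pattern had a mean of at least 10 TPM. Klrk1, Fgr and Fcer1a, and the comparison of LPS responses of GILZ KO and GILZ TG, were added after the values were seen. Some genes that this rule would name are not reported here. Shared sequence was counted in GENCODE transcripts, and 3 listed symbols were not found.

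Alternatives were DESeq2 1.42.0, its size factors in edgeR, no filter, limma 3.58.1 on log2(TPM + 1) and log2(TPM + 0.1), the replicate number as a block, other sets of libraries in the fit and each library left out. Leaving out the GILZ TG libraries numbered 1 and 2 was chosen after seeing the data and leaves a lone GILZ TG library, which is assumed to vary like the other groups.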

Additional observations from a re-analysis of the deposited data

Results flagged for a closer look

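The LPS response of Trem1 had opposite signs in GILZ KO and GILZ TG, and the difference had an unadjusted p of 0.0483, which is why it is listed. In each of the 3 same-numbered pairs of GILZ KO it was higher after LPS (0.45, 0.46 and 0.47 log2 units of TMM-scaled counts), and in each of the 3 of GILZ TG it was lower (-0.57, -0.77 and -0.22). The labels do not say that same-numbered libraries belong together. In GILZ KO, their deviations from the group means correlated little (r = 0.05, 0.08 and 0.19). The difference between the responses was 0.97 on the log2 scale (95% CI 0.01 to 1.92), but it was not called in the edgeR fit of all 18 libraries (adjusted p = 0.50, range over the alternatives 0.023 to 0.76). On the TPM scale Trem1 was lower after LPS in both genotypes (2.11 to 9.04 TPM over all libraries). Relative to the median gene on that scale, it was at 0.36 in GILZ KO and at -0.43 in GILZ TG. Without the GILZ TG libraries numbered 1 and 2 the difference was 0.68 (adjusted p = 0.76).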

How the results depend on the processing

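The count of members called was 7 in LPS against untreated WT and GILZ KO in every library left out, and 7 to 9 in GILZ TG. It was 0 to 4 for GILZ KO against GILZ TG both untreated and after LPS, 0 to 1 for GILZ TG against WT after LPS, and 0 for the other comparisons. GILZ KO against GILZ TG after LPS had 2 called members with DESeq2, 2 with no filter and 1 with all 18 libraries in the fit, and untreated it had 0 without the GILZ TG libraries numbered 1 and 2. Deviations of same-numbered libraries correlated over 0.1 in 5 of 18 pairs of genotypes. The highest were WT with GILZ TG at the number 1 (r = 0.50 untreated and 0.24 after LPS) and at 3 (0.45 and 0.25). What these libraries share was not tested. With the replicate number as a block, 1 member was called for GILZ KO against GILZ TG after LPS (Fcgr2b, 0.82), 1 for their LPS responses (Trem1, 0.98), 8 in GILZ KO (with Trem1) and 9 in GILZ TG after LPS (with Trem1 and Tyrobp).

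Signs turned on the log2(TPM + 1) and log2(TPM + 0.1) scales for Tyrobp after LPS (-0.53 and -0.53 in WT, -0.49 and -0.49 in GILZ KO, -0.47 and -0.47 in GILZ TG), for Trem1 (-0.46 and -0.57 in WT, -0.15 and -0.18 in GILZ KO) and for Fcgr3 in WT (-0.018 and -0.018). Without the GILZ TG libraries numbered 1 and 2, 16 of 63 values turned, 0 of which were called in either fit, among them after LPS Fcgr2b (0.26) and Trem1 (0.51) in GILZ TG against WT and Trem1 in GILZ KO against GILZ TG (-0.0048). With each library left out in turn, 74 of 1458 values turned, 0 of them called in either fit, such as Trem1 after LPS in WT (-0.27 to 0.33) and the Fcgr2b response in GILZ TG minus WT (-0.26 to 0.58). The cause was not tested. Of 1191 alternative values of single genes, 1125 kept direction and side of the threshold. Counts over all genes moved more. For GILZ KO against WT, GILZ TG against WT and GILZ KO against GILZ TG they were 12, 81 and 623 untreated and 10, 56 and 316 after LPS. With DESeq2 they were 79, 315 and 1218 untreated and 100, 274 and 715 after LPS, without a filter 21, 175 and 880 and 88, 412 and 822, with limma on log2(TPM + 1) 8, 41 and 268 and 17, 30 and 147, and with all 18 libraries 29, 252 and 795 after LPS. Differences of the response (2 for GILZ KO minus WT, 1 for GILZ TG minus WT and 16 for GILZ KO minus GILZ TG) became 20, 2 and 150 with DESeq2 and 8, 2 and 144 with the block. With each library left out, the counts ranged for these comparisons of genotypes over 5 to 31, 16 to 665 and 79 to 1306 untreated, over 4 to 25, 15 to 1067 and 24 to 1403 after LPS, and over 1 to 4, 1 to 8 and 0 to 82 for the responses. Trem1 had 86 to 366 reads per library, and the part of this depth in its spread was not tested.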
